A study of Rattus norvegicus with 12 samples.

Results

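Voltage-gated and potassium ion channels were represented by 112 genes on a rat expression array, out of 10411 genes with a single symbol. They were chosen by symbol alone, as genes of the potassium channel (Kcn), calcium channel (Cacna, Cacnb, Cacng), sodium channel (Scn) and hyperpolarization-activated channel (Hcn) families. The 112 genes had 158 of the 15866 probe sets tested, and a gene with several probe sets was read from the one of highest mean signal on the 12 arrays. By class there were 30 pore subunits of voltage-gated potassium (Kv) channels, 10 auxiliary potassium channel subunits, 15 inward rectifiers, 11 channels of the 2-pore type and 7 subunits of channels opened by calcium or sodium. The rest were 3 Hcn genes, 9 sodium channel alpha and 3 beta subunits, and 10 alpha-1, 2 alpha2delta, 4 beta and 8 gamma subunits of calcium channels.

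The study asked how a bout of depolarization changes gene expression in cultured neurons of the rat ventral midbrain, the region that holds the dopaminergic neurons of the substantia nigra. Cells of CD1 rat embryos at embryonic day 12 were expanded for 6 days in 20 ng/ml bFGF, a growth factor, and 50 ng/ml SHH (Sonic hedgehog), both of which were then removed for 3 days. On day 9 in vitro the depolarized cultures received 56 mM KCl for 2 h and were returned to other medium, while control cultures stayed in control medium. The interval from washout to collection was either 30 min or 2 h, which gave 4 groups of 3 arrays: control and depolarized at 30 min (replicates 1 to 3) and control and depolarized at 2 h (replicates 4 to 6). The embryos of 4 dams were combined and divided into 3 groups before dissection, and RNA of sister dishes was pooled, so an array is a pool of many embryos and cell types. The labels do not say whether cultures of the 2 collection times came from the same preparation.

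Raising external potassium depolarizes a neuron directly and opens its voltage-gated calcium channels, and the calcium that enters starts a program of gene transcription. Sodium channels carry the upstroke of the action potential, voltage-gated potassium channels repolarize the membrane, and inward rectifiers and 2-pore channels set the resting potential. Neurons are known to adjust the expression of these channels to their activity, and midbrain dopaminergic neurons are known for pacemaking that rests on Cav1.3 and Hcn channels and is shaped by A-type (Kv4), SK and GIRK potassium channels.

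Values are log2 expression, so a difference of 1 is a doubling. The level of one probe set cannot be compared with that of another, because probes differ in how well they bind. The treatment left its known mark: the immediate-early gene Fos measured 6.98, 6.95 and 7.04 in the 30 min controls and 10.89, 11.25 and 11.01 in the depolarized arrays, and at 2 h it averaged 6.98 in controls and 10.37 after depolarization. Array medians lay between 8.33 and 8.43, and the correlation of 2 arrays of one group over all probe sets lay between 0.996 and 0.998. The mean signal of 94 of the 112 channel genes was below the median of all probe sets and that of 38 was in the dimmest 25%, where an array understates differences. The table holds no detection calls, so a weak signal cannot be told from none. Of 9 dopaminergic marker genes 7 were measured. Among them Th, the rate-limiting enzyme of dopamine synthesis, averaged 7.53 in the 30 min controls and 7.96 in the 2 h controls, and the transcription factor Pitx3 averaged 6.39 and 6.5. Ddc, the next enzyme of the same pathway, averaged 8.56 and 10.03, and Aldh1a1, an aldehyde dehydrogenase of a subset of these neurons, 8.07 and 10.36. These levels do not show by themselves which of the genes were expressed. In these pooled RNAs, fewer cells of a type and less RNA per cell cannot be told apart.

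Depolarization moved few channel genes, and nearly all by small amounts. At 30 min 6 channel genes were higher in the depolarized cultures and 2 were lower (limma, Benjamini-Hochberg adjusted p under 0.05 over all probe sets), which is 5.36% and 1.79% of the 112. Among all probe sets 10.8% were higher and 13.1% lower. At 2 h 5 channel genes were higher and 7 lower, or 4.46% and 6.25%, against 9.51% and 15.7% of all probe sets. Dim probe sets were called less often. Of the 94 channel genes below the median signal 4 were higher and 2 lower at 30 min (4.26% and 2.13%), where 6.47% and 8.48% of all probe sets below it were called. At 2 h 5 of the 94 were higher and 3 lower (5.32% and 3.19%), where 7.66% and 8.38% were. Of the 18 channel genes above the median 2 were higher and 0 lower at 30 min (11.1% and 0%). Of all probe sets above it 15.2% and 17.8% were called. At 2 h 0 of the 18 were higher and 4 lower (0% and 22.2%), where 11.4% and 23.0% were. The median difference of the channel genes was 0.03 at 30 min and 0.02 at 2 h, beside 0.01 and 0.00 for all probe sets. No channel gene passed at both times, and 20 passed at one of them. Those 20 had all depolarized arrays on one side of all their controls. Because they were picked by p-values from the same arrays, this separation adds no support. A direct test of the response at 2 h against the response at 30 min called 2 channel genes higher and 7 lower, where 6.16% and 6.79% of all probe sets were called.

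**Figure D1:**
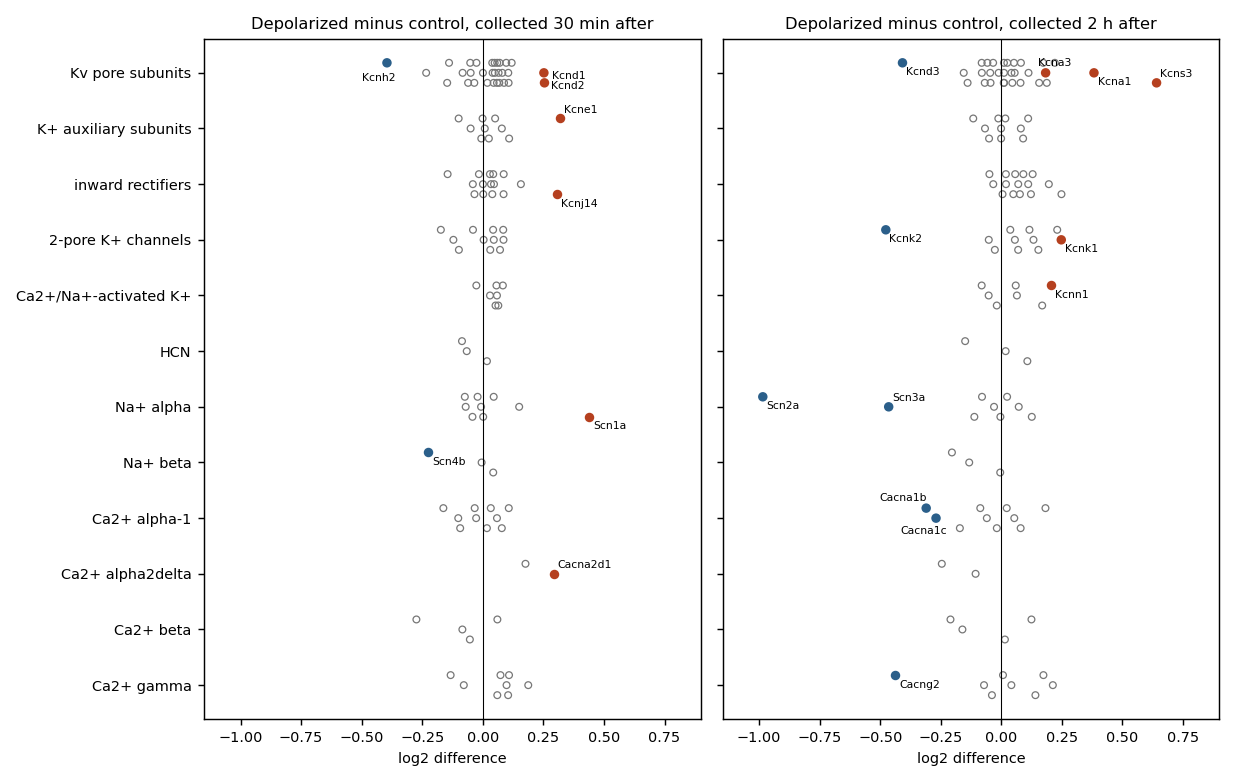
Difference between depolarized and control cultures (log2, x axis) for each of the 112 channel genes by class (rows), at 30 min (left) and 2 h (right) after depolarization. Each point is one gene, filled red where higher and blue where lower at an adjusted p under 0.05, open otherwise, and points are spread vertically within a row for legibility. At 30 min no difference reaches 0.5 in size, and at 2 h the only such differences that passed are Kcns3 (0.64) and Scn2a (-0.98).

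Counts this small depended on single arrays and on the scaling. At 30 min the count of higher genes was 3 without control 2, without depolarized 1 or without depolarized 3, and the count of lower genes was 1 without control 1, control 2 or depolarized 3. At 2 h the higher count was 2 without control 4, 3 without control 5, depolarized 4 or depolarized 5, and 8 without control 6. The 30 min split of 6 higher and 2 lower was 7 and 1 after median centring, and the 2 h split of 5 and 7 was 10 and 7 after median centring, 3 and 9 after quantile normalization and 3 and 8 after loess correction. With an ordinary equal-variance test on the arrays compared, adjusted over all probe sets, the calls kept were those of Scn1a, Kcne1 and Kcnh2 at 30 min and of Scn2a and Scn3a at 2 h.

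The sodium channel genes held the largest change. Scn2a, the pore of Nav1.2, which is the main sodium channel of young axons, was at 7.20, 7.39 and 7.21 in the 2 h controls, compared with 6.19, 6.35 and 6.32 in the depolarized cultures. All 3 depolarized arrays were below all controls, and the nearest arrays were 0.85 apart. Scn2a fell by 0.98 (SE 0.07, 1.98-fold, adjusted p = 2.17e-07). At 30 min its values overlapped, with 5.90, 5.79 and 5.94 in controls and 5.88, 5.80 and 5.82 after depolarization (difference -0.04, SE 0.07, adjusted p = 0.756). The response differed between the 2 times by -0.94 (SE 0.10, adjusted p = 2.00e-05). All 30 min values of Scn2a were far below the array medians of 8.33 to 8.43, where an array understates differences. A fall at 30 min could therefore have gone unseen.

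Scn3a, the pore of Nav1.3, a channel of embryonic neurons, followed the same course at a smaller size. Its values were 10.12, 10.19 and 10.01 in the 2 h controls and 9.55, 9.69 and 9.68 in the depolarized cultures, with no overlap. It fell by 0.47 (SE 0.08, 1.38-fold, adjusted p = 0.000814), while at 30 min the difference was 0.15 (SE 0.08, adjusted p = 0.249) with overlapping arrays. The difference between the responses was -0.62 (SE 0.12, adjusted p = 0.00256). At 2 h and in the difference between the responses, both Scn2a and Scn3a passed whichever array was left out.

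In the RefSeq annotation of GRCr8, Scn3a and Scn2a are neighbours on chromosome 3 with no protein-coding gene between them, and Scn1a, Scn9a and Scn7a follow in the same cluster. Scn3a lies on the minus and Scn2a on the plus strand. Because the neighbours fell together, the RefSeq promoter windows of both are shown, each from 250 bases before to 50 after the annotated gene start, in the direction of the gene. Scn3a was added after its values were seen. The letters in capitals mark a match to TGANTCA, which was searched as the AP-1 motif of Fos and Jun proteins with any base allowed in the middle.
Scn2a: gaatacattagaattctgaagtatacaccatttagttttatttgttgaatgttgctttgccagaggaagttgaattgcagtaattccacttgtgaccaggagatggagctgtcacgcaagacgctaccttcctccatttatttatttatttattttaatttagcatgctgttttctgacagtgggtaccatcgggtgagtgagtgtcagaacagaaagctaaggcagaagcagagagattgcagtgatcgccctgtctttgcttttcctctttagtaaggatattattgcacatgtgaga
Scn3a: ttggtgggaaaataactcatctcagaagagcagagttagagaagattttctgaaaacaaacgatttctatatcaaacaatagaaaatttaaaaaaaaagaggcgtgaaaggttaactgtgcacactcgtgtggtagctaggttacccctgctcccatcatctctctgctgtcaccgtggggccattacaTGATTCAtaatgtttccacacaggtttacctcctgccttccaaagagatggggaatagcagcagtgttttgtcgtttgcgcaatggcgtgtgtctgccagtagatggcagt
The Scn3a window is chr3:70666149-70666448 and its match, TGATTCA, begins 61 bases before the start. The Scn2a window is chr3:70710706-70711005 and held no match to any motif searched.

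The other genes of the cluster did not fall with them. Scn1a, the pore of Nav1.1, which drives fast-spiking inhibitory neurons, rose at 30 min, from 6.09, 6.11 and 6.09 in controls to 6.53, 6.51 and 6.57. The 2 sets of arrays were tight and far apart, and the difference of 0.44 (SE 0.08, 1.36-fold, adjusted p = 0.000707) passed whichever array was left out. At 2 h Scn1a was at 7.36, 7.50 and 7.16 in controls and at 7.39, 7.60 and 7.40 after depolarization, and the groups overlapped (difference 0.13, SE 0.08, adjusted p = 0.299). Its response did not differ between the times at the threshold (-0.31, SE 0.12, adjusted p = 0.0903). For Scn9a, the Nav1.7 pore of sensory and sympathetic neurons, the 2 h difference was -0.11 (SE 0.10, adjusted p = 0.447), and for Scn7a, a sodium sensor of glia, it was 0.02 (SE 0.07, adjusted p = 0.862).

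**Figure D2:**
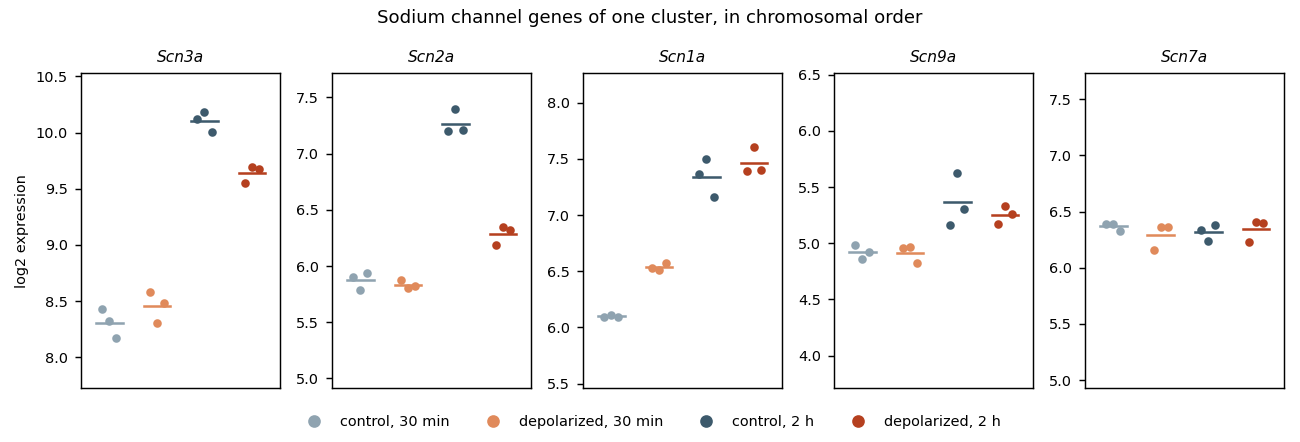
Log2 expression (y axis, its own range but the same span in each panel) of the 5 sodium channel genes of the chromosome 3 cluster in the order of the RefSeq annotation, with one point per array and a line at the mean of the 3 arrays of each group. Scn3a and Scn2a are lower in the depolarized than in the control cultures at 2 h, Scn1a is higher after depolarization at 30 min, and Scn7a shows 4 overlapping groups.

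Elsewhere in the sodium channels 1 gene passed. Scn4b, a beta subunit that shapes resurgent current, was at 8.10, 7.90 and 7.79 in the 30 min controls, compared with 7.76, 7.73 and 7.63 after depolarization. The nearest arrays of the 2 groups differed by 0.02. The difference was -0.23 (SE 0.08, adjusted p = 0.0494), and it passed only with control 3 left out and in none of the other leave-one-out fits (adjusted p between 0.0507 and 0.259 without any one of the other 5 arrays). It was also lost after median centring (0.114). Scn8a, the Nav1.6 pore of mature nodes, differed by -0.07 at 30 min and -0.08 at 2 h (SE 0.08 each, adjusted p = 0.601 and 0.502). Scn10a, the tetrodotoxin-resistant Nav1.8 pore, differed by 0.00 and 0.07 (adjusted p = 0.993 and 0.595). Scn3b, a beta subunit of early neurons, differed by -0.20 at 2 h (SE 0.10, adjusted p = 0.166). In all, 1 of 9 alpha subunits was higher at 30 min, 2 of 9 were lower at 2 h, and 1 of 3 beta subunits was lower at 30 min.

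The largest rise among the channels was that of Kcns3, the Kv9.3 subunit, which forms no channel alone and modifies Kv2 channels. It was at 5.81, 5.85 and 5.90 in the 2 h controls, compared with 6.46, 6.26 and 6.76 in the depolarized cultures. The 2 h depolarized arrays were above the arrays of all other groups, which lay between 5.72 and 5.99. The 2 h difference was 0.64 (SE 0.10, 1.56-fold, adjusted p = 0.000203), against -0.14 (SE 0.10, adjusted p = 0.378) at 30 min, and the responses differed by 0.78 (SE 0.14, adjusted p = 0.00134). Both calls held whichever array was left out. The signal is dim: 12.5% of all probe sets had a lower mean. The RefSeq promoter window of Kcns3 (GRCr8, chr6:39584056-39584355, minus strand, 58.3% G or C) is shown because it is the channel gene that rose most, and it held none of the 4 motifs searched.
Kcns3: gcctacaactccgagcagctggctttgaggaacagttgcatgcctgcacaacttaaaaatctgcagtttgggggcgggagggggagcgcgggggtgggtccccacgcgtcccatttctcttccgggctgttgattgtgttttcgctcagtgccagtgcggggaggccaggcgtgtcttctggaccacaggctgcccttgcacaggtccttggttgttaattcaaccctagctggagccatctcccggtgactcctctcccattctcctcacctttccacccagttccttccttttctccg

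The Kv4 genes Kcnd1, Kcnd2 and Kcnd3 encode the pores of the A-type current, which delays firing and slows pacemaking in dopaminergic neurons. Kcnd2 was at 8.29, 8.12 and 8.24 in the 30 min controls, compared with 8.49, 8.41 and 8.51 after depolarization, a difference of 0.25 (SE 0.07, adjusted p = 0.0155). Kcnd1 was at 7.05, 7.20 and 7.13 in the 30 min controls, compared with 7.47, 7.38 and 7.29 after depolarization, also a difference of 0.25 (SE 0.07, adjusted p = 0.0132). In both genes the 2 groups were apart, by 0.12 for Kcnd2 and 0.09 for Kcnd1 between the nearest arrays. Kcnd2 did not pass without control 2 or depolarized 3 (adjusted p = 0.0854 at most), nor did Kcnd1 without control 1 or depolarized 1 (0.0664 at most). A dimmer Kcnd2 probe set gave 0.24 at 30 min (SE 0.11, adjusted p = 0.136). At 2 h the differences were -0.14 for Kcnd2 and -0.08 for Kcnd1 (SE 0.07 each, adjusted p = 0.178 and 0.456).

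Kcnd3 fell at 2 h and not at 30 min. Its values were 10.21, 10.37 and 10.06 in the 2 h controls and 9.74, 9.86 and 9.82 in the depolarized cultures, with no overlap. The 2 h difference was -0.41 (SE 0.08, 1.33-fold, adjusted p = 0.00146), against 0.02 (SE 0.08, adjusted p = 0.913) at 30 min, and it passed whichever array was left out. A dimmer probe set of Kcnd3 gave 0.09 at 2 h (SE 0.07, adjusted p = 0.366), so the fall rests on 1 of 2 probe sets, and the mean of both gave -0.16 and did not pass. The response at 2 h minus that at 30 min was -0.39 for Kcnd2 (SE 0.10, adjusted p = 0.0163), which was lost without control 2 (0.0513). It was -0.43 for Kcnd3 (SE 0.11, adjusted p = 0.0195) on the brighter probe set, and -0.17 with no call on the mean of both (adjusted p = 0.195). For Kcnd1 it was -0.34 (SE 0.10, adjusted p = 0.0347), a call that was lost in 8 of 12 leave-one-out fits (0.0898 at most) and with a trended and robust prior (0.0529).

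Among the other Kv pores, Kcna1, the Kv1.1 subunit that limits repetitive firing, was at 7.35, 7.49 and 7.56 in the 2 h controls, compared with 8.0, 7.74 and 7.80 after depolarization. Every depolarized array was above every control, and the difference was 0.38 (SE 0.08, 1.30-fold, adjusted p = 0.00179), a call that held whichever array was left out. Kcna3, the Kv1.3 subunit best known in lymphocytes and microglia, was at 5.98, 5.91 and 6.03 in the 2 h controls, compared with 6.22, 6.13 and 6.12 after depolarization. Its difference of 0.18 (SE 0.06, adjusted p = 0.0422) passed without control 6 and did not pass without any one of the other 5 arrays (adjusted p between 0.0518 and 0.168), nor after quantile normalization or loess correction.

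Kcnh2, the ERG1 channel that sets the interval between bursts, was the Kv pore that fell at 30 min. It was at 8.20, 8.10 and 8.24 in controls and at 7.81, 7.86 and 7.68 in depolarized cultures, with the groups well apart. The difference was -0.40 (SE 0.07, 1.32-fold, adjusted p = 0.000511) and passed whichever array was left out. At 2 h it was -0.16 (SE 0.07, adjusted p = 0.127), and the change in response, 0.24 (SE 0.10, adjusted p = 0.138), did not pass. Kcna5, the Kv1.5 subunit, passed in neither treatment comparison (-0.23 at 30 min and 0.22 at 2 h, SE 0.09 each, adjusted p = 0.0589 and 0.0718), but the 2 responses differed by 0.45 (SE 0.12, adjusted p = 0.0193).

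The remaining Kv pores gave no call on treatment. Kcnc1, the fast Kv3.1 channel, differed by 0.07 at 30 min and -0.07 at 2 h (SE 0.09 each, adjusted p = 0.686 and 0.655). Kcnq3, a subunit of the M current, differed by 0.07 and -0.06 (SE 0.10 each, adjusted p = 0.728 and 0.731), and Kcnh3, of the ELK group, by 0.05 at both times (SE 0.09, adjusted p = 0.781 and 0.770). Of the 30 Kv pores 2 were higher and 1 lower at 30 min, and 3 were higher and 1 lower at 2 h.

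Of the 10 auxiliary potassium channel subunits 1 passed. Kcne1, a single-pass subunit that slows Kcnq1 channels, was at 5.92, 5.90 and 5.94 in the 30 min controls, compared with 6.27, 6.24 and 6.21 after depolarization. The difference of 0.32 (SE 0.06, 1.25-fold, adjusted p = 0.00130) stood beside SDs of 0.02 and 0.03 in the groups, and it passed whichever array was left out. At 2 h the 2 groups had the same mean, 5.85 (difference 0.00, SE 0.06, adjusted p = 0.992), and the response differed between the times by -0.32 (SE 0.09, adjusted p = 0.0264). Kcnip3, also known as DREAM, which binds Kv4 channels and, without calcium, represses transcription, differed by -0.01 at 30 min and 0.02 at 2 h (SE 0.08 each, adjusted p = 0.971 and 0.915). Kcnab2, a beta subunit of Kv1 channels, differed by 0.11 at both times (SE 0.09, adjusted p = 0.474 and 0.422).

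Inward rectifiers changed little. Kcnj14, the Kir2.4 channel, was at 7.84, 7.71 and 7.72 in the 30 min controls, compared with 8.05, 7.97 and 8.16 after depolarization, a difference of 0.31 (SE 0.10, adjusted p = 0.0319). The groups did not overlap, yet the call was lost without control 2, control 3, depolarized 1 or depolarized 3 (adjusted p = 0.124 at most). None of the 15 passed at 2 h, where Kcnj11, the Kir6.2 pore of ATP-sensitive channels, came nearest (0.25, SE 0.09, adjusted p = 0.0596). The GIRK genes Kcnj3 and Kcnj6, whose channels open on dopamine D2 receptor activation, differed at 2 h by 0.12 (SE 0.10, adjusted p = 0.436) and 0.07 (SE 0.06, adjusted p = 0.490).

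The probe sets of Kcnj6 went apart. The dimmest of its 4 probe sets gave -0.40 at 2 h (SE 0.10, adjusted p = 0.00933), and the other 3 gave between 0.07 and 0.13 without a call. For Kcnj3 the dimmest of 3 probe sets gave 0.26 (SE 0.08, adjusted p = 0.0226), and for Kcnj16, a Kir subunit of glia and kidney, the dimmer of 2 gave 0.24 (SE 0.07, adjusted p = 0.0198). Which transcript forms these probe sets detect was not examined.

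Among the 2-pore channels, Kcnk2 (TREK-1), a leak channel opened by stretch, heat and lipids, was at 8.22, 8.25 and 7.64 in the 2 h controls, compared with 7.45, 7.59 and 7.63 after depolarization. The third control, replicate 6, was 0.0023 above the nearest depolarized array. The difference was -0.48 (SE 0.12, 1.39-fold, adjusted p = 0.00919), and it did not pass without control 4 or control 5 (adjusted p = 0.0593 at most). Kcnk1 (TWIK-1) was at 6.20, 6.30 and 6.34 in the 2 h controls, compared with 6.59, 6.40 and 6.58 after depolarization, a difference of 0.25 (SE 0.08, adjusted p = 0.0254) that was lost without control 4, control 5, depolarized 4 or depolarized 6 (adjusted p = 0.106 at most) and after quantile normalization or loess correction. Kcnk3 (TASK-1) and Kcnk6 (TWIK-2) differed at 2 h by 0.13 (SE 0.07, adjusted p = 0.177) and 0.23 (SE 0.11, adjusted p = 0.129).

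Of the 7 subunits of channels opened by calcium or sodium, Kcnn1, the SK1 channel, passed at 2 h. It was at 7.63, 7.63 and 7.73 in controls and at 7.82, 7.96 and 7.83 after depolarization, a difference of 0.21 (SE 0.06, adjusted p = 0.0197). The groups were apart, but the call was lost without control 4, control 5 or depolarized 5 (adjusted p = 0.0910 at most). Kcnn3, the SK3 channel that steadies dopaminergic pacemaking, differed by 0.06 at 30 min and -0.02 at 2 h (SE 0.09 each, adjusted p = 0.731 and 0.906). Kcnma1, the BK pore, differed by 0.06 and 0.17 (SE 0.10 each, adjusted p = 0.769 and 0.263), and its neuronal partner Kcnmb4 by -0.03 and -0.08 (SE 0.08 each, adjusted p = 0.866 and 0.489). A second Kcnma1 probe set gave -0.32 at 2 h (SE 0.09, adjusted p = 0.0195), opposite in sign to the brightest. None of the 3 Hcn genes passed. Hcn2, a pacemaker channel subunit, differed by -0.09 and 0.02 (SE 0.09 each, adjusted p = 0.567 and 0.913), and Hcn4 by 0.02 and 0.11 (SE 0.09 each, adjusted p = 0.930 and 0.422).

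**Figure D3:**
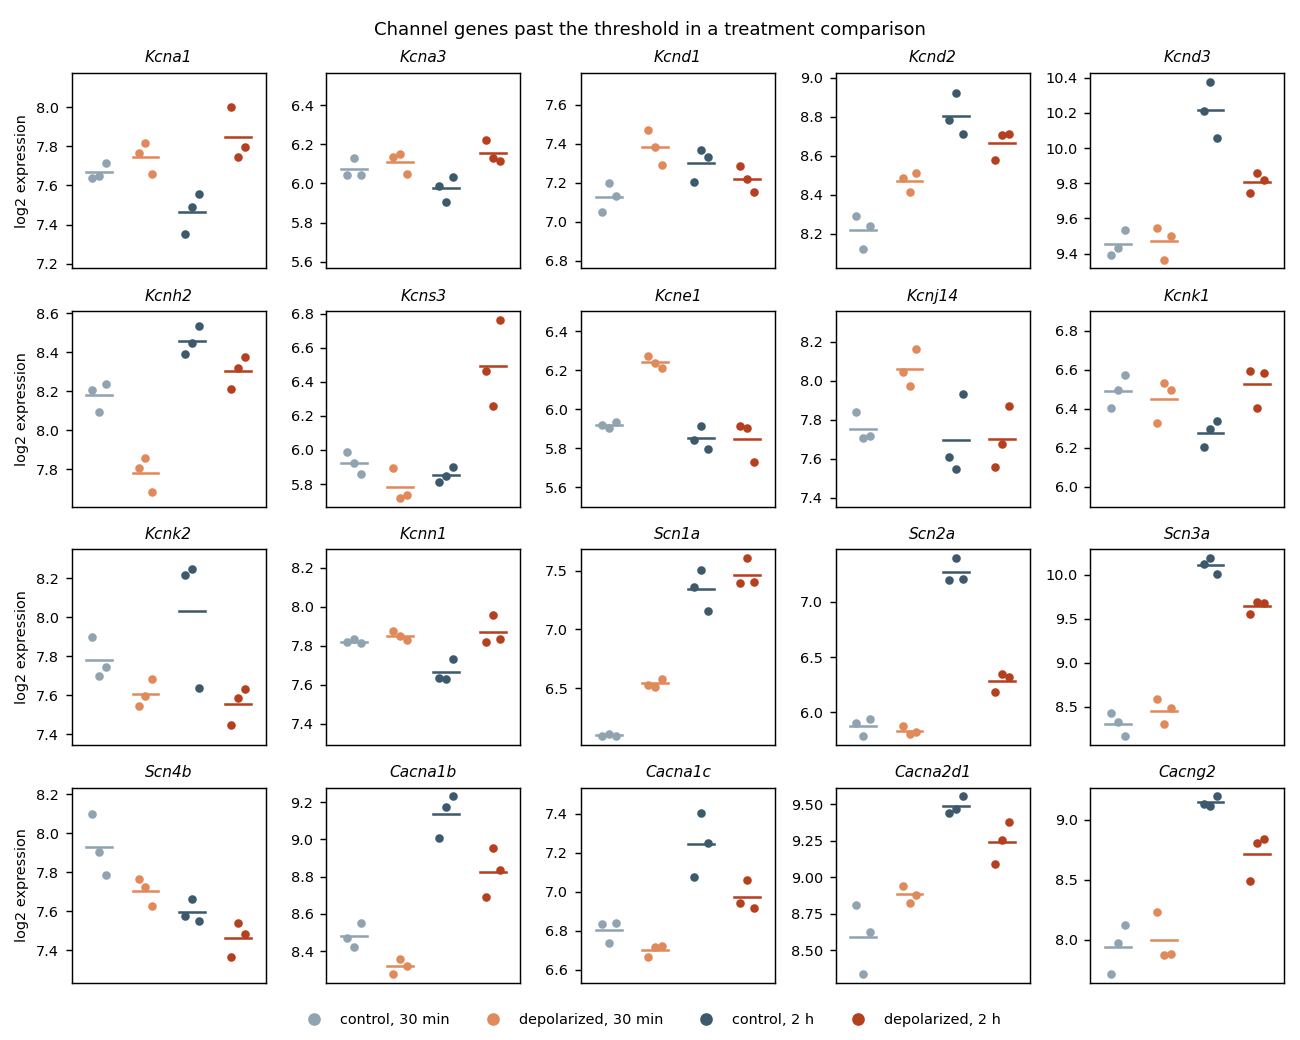
Log2 expression (y axis, its own range in each panel) of the 20 channel genes that passed at an adjusted p under 0.05 at 30 min or at 2 h, with one point per array and a line at the mean of the 3 arrays of each group. In Scn2a the 2 h depolarized arrays (6.19 to 6.35) are below the 2 h controls (7.20 to 7.39), and in Kcns3 they are above the arrays of all other groups.

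Calcium channel pores fell at 2 h where they changed. Cacna1b, the N-type pore of presynaptic terminals, was at 9.01, 9.17 and 9.23 in the 2 h controls, compared with 8.69, 8.95 and 8.84 after depolarization, a difference of -0.31 (SE 0.08, 1.24-fold, adjusted p = 0.00732) that passed whichever array was left out. Cacna1c, the L-type Cav1.2 pore that couples calcium entry to transcription, was at 7.08, 7.40 and 7.25 in controls and at 6.94, 7.06 and 6.92 after depolarization. Its groups were apart by only 0.01, and the difference of -0.27 (SE 0.08, adjusted p = 0.0170) was lost without control 5, depolarized 4 or depolarized 6 (adjusted p = 0.0993 at most). A second, dimmer probe set gave 0.02 for Cacna1b and -0.05 for Cacna1c, with no call for either (adjusted p = 0.904 and 0.722). The mean of the probe sets gave -0.15 for Cacna1b and -0.16 for Cacna1c, and neither passed (adjusted p = 0.135 and 0.0889).

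The other pores gave no call on treatment. Cacna1d, the Cav1.3 pore of dopaminergic pacemaking, differed by -0.03 at 30 min and -0.02 at 2 h (SE 0.10 each, adjusted p = 0.881 and 0.924). Cacna1a, the P/Q-type pore, differed by 0.03 and 0.05 (SE 0.10 each, adjusted p = 0.882 and 0.767), and Cacna1g, a T-type pore, by -0.09 and -0.17 (SE 0.08 each, adjusted p = 0.506 and 0.151). Of the 10 alpha-1 subunits none passed at 30 min, and 2 were lower at 2 h.

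Among the calcium channel subunits that accompany the pore, Cacna2d1, the alpha2delta subunit that carries channels to the membrane and binds gabapentin, was at 8.81, 8.34 and 8.63 in the 30 min controls, compared with 8.94, 8.83 and 8.88 after depolarization. The lowest depolarized array was 0.02 above the highest control. The difference was 0.29 (SE 0.10, adjusted p = 0.0435), a call that held without control 1 and was lost without any one of the other 5 arrays (adjusted p between 0.0621 and 0.246). At 2 h it was -0.25 (SE 0.10, adjusted p = 0.0874), and the 2 responses differed by -0.54 (SE 0.14, adjusted p = 0.0182). Its RefSeq promoter window (GRCr8, chr4:20330098-20330397, minus strand, 78.3% G or C) is shown, chosen after its values were seen, as an example of a window with several motif matches. The capitals mark, in order, TGACG, the core of the site bound by CREB, beginning 177 bases before the start, and CGCCCCCGC, the reverse complement of the EGR motif, at 52 and 41 bases before it.
Cacna2d1: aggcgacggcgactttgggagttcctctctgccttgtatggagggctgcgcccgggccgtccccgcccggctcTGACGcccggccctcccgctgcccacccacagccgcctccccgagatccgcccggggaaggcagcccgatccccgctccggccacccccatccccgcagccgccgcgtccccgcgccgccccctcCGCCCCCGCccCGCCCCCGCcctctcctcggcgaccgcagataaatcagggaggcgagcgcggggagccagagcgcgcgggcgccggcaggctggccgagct

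Cacng2, or stargazin, which brings AMPA receptors to the synapse, was at 9.13, 9.12 and 9.20 in the 2 h controls, compared with 8.49, 8.80 and 8.84 after depolarization. With no overlap, the difference was -0.44 (SE 0.12, 1.35-fold, adjusted p = 0.0107), and it was lost without depolarized 4 (adjusted p = 0.0664). A second Cacng2 probe set gave -0.11 (SE 0.11, adjusted p = 0.525), and the mean of both gave -0.27 and did not pass (adjusted p = 0.0611). Of the 4 beta subunits, which bring the pore to the membrane, none passed at either time. Cacnb4 differed by 0.12 at 2 h (SE 0.06, adjusted p = 0.126), Cacnb1 by -0.27 at 30 min (SE 0.11, adjusted p = 0.0839) and Cacnb3 by -0.21 at 2 h (SE 0.17, adjusted p = 0.414). A dimmer probe set of Cacnb2 gave -0.36 at 2 h (SE 0.07, adjusted p = 0.00156) where the brightest gave -0.16 (SE 0.07, adjusted p = 0.126). Cacna2d3 and Cacng6 differed at 2 h by -0.11 and 0.14 (adjusted p = 0.433 and 0.331).

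Motifs of transcription factors that answer activity were counted in the RefSeq promoter windows on both strands. Of the 112 channel genes 77 had a window, among 33469 in the table. The 33469 were not matched to the channel genes in gene type or in share of G and C. The part of this in the shares below was not tested. The full CREB site TGACGTCA was in 1.83% of all windows and in 0 of the 77. Its core TGACG, which the full site contains, was in 21.2% of all windows and in 14 of the 77 (18.2%). The AP-1 motif TGANTCA was in 7.33% of all and in 4 of the 77 (5.19%), and the EGR motif GCGGGGGCG in 2.73% of all and in 7 of the 77 (9.09%). Among the channel genes that changed, Kcne1 held a TGACG and an AP-1 match, Cacna1b a TGACG and 2 EGR matches, and Cacna1c a TGACG match. Matches in Scn3a and Cacna2d1 are given above. Kcna3, Kcnd2, Kcnd3, Kcns3, Kcnj14, Kcnk2, Scn2a, Scn4b and Cacng2 held no match. Kcna1, Kcnd1, Kcnh2, Kcnk1, Kcnn1 and Scn1a had no window. A match is only a run of letters in this window, and no binding was measured here.

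The controls of the 2 collection times differed more than depolarized and control cultures did. Between the 30 min and the 2 h controls, 23 of the 112 channel genes were higher at 2 h (20.5%) and 14 were lower (12.5%), beside 18.1% and 17.2% of all probe sets. Of the 23, 15 differed by at least 0.5, and of the 14 none did. Among all probe sets 983 of the 2874 higher and 464 of the 2730 lower ones differed by that much. All 23 had every 2 h control above every 30 min control, and 13 of the 14 had every one below. These genes were picked by p-values from the same arrays, so this separation adds no support. The median over all channel genes was -0.05, close to that of all probe sets, -0.04. Time and preparation of the cultures cannot be told apart here.

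The 2 largest differences were those of the sodium channel genes Scn3a and Scn2a, while the median over the 9 alpha subunits was -0.02. For Scn3a the 30 min controls gave 8.43, 8.32 and 8.17, and the 2 h controls 10.12, 10.19 and 10.01, a difference of 1.80 (SE 0.08, 3.48-fold, adjusted p = 1.36e-09). Scn2a differed by 1.39 (SE 0.07, 2.62-fold, adjusted p = 2.26e-09), Scn1a by 1.24 (SE 0.08, 2.36-fold, adjusted p = 1.83e-08) and Scn9a by 0.44 (SE 0.10, adjusted p = 0.00193). In the beta subunit Scn3b, the 30 min controls were at 8.22, 8.17 and 8.37 and those of 2 h at 9.62, 9.57 and 9.66, a difference of 1.36 (SE 0.10, adjusted p = 6.00e-08). Thus 4 of 9 alpha subunits and 1 of 3 beta subunits were higher, and Scn4b was lower (-0.33, SE 0.08, adjusted p = 0.00367). Scn8a, found in mature axons, did not differ at the threshold (-0.02, SE 0.08, adjusted p = 0.819).

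Calcium channel genes were also among the higher ones. Cacna2d3, an alpha2delta subunit, was higher by 1.37 (SE 0.09, adjusted p = 1.60e-08), Cacng2 by 1.21 (SE 0.12, adjusted p = 7.81e-07), the T-type pore Cacna1h by 1.06 (SE 0.10, adjusted p = 7.33e-07) and Cacna2d1 by 0.90 (SE 0.10, adjusted p = 4.22e-06). Both alpha2delta subunits, 3 of 4 beta subunits, 3 of 10 pores and 2 of 8 gamma subunits were higher. On the mean of all its probe sets the difference of Cacng2 was 0.53, that of Cacna1b 0.37 and that of Cacna1c 0.26, each still past the threshold. The beta subunits were Cacnb1 (0.75, SE 0.11, adjusted p = 6.24e-05), Cacnb3 (0.51, SE 0.17, adjusted p = 0.0289) and Cacnb4 (0.19, SE 0.06, adjusted p = 0.0149). Cacnb3 passed without control 3 at 30 min or control 6 and did not without any one of the other 4 controls (adjusted p between 0.0639 and 0.151), and Cacnb4 did not without control 2 at 30 min (0.0643). The pores were Cacna1h, Cacna1b (0.65, SE 0.08, adjusted p = 7.33e-06) and Cacna1c (0.44, SE 0.08, adjusted p = 0.000343), while Cacna1g, a T-type pore of the same family as Cacna1h, gave -0.05 (SE 0.08, adjusted p = 0.644). The second gamma subunit was Cacng3 (0.59, SE 0.08, adjusted p = 3.48e-05), which like stargazin handles AMPA receptors. Lower in the 2 h controls were Cacna1f, the retinal L-type pore (-0.23, SE 0.08, adjusted p = 0.0386), and the gamma subunits Cacng4, Cacng1 and Cacng6 (-0.29, -0.23 and -0.27, adjusted p = 0.00882, 0.0197 and 0.0384). All 4 were lost without control 4. Cacna1f was also lost without control 1, 2 or 5 (0.191 at most), Cacng1 without control 2 or 3 (0.0998 at most) and Cacng6 without control 1, 2 or 3 (0.221 at most).

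Potassium channel genes differed in both directions, by at most 0.76. The A-type pores Kcnd3 (0.76, SE 0.08, adjusted p = 2.40e-06) and Kcnd2 (0.59, SE 0.07, adjusted p = 1.06e-05) and the fast Kcnc1 (0.54, SE 0.09, adjusted p = 0.000289) were higher in the 2 h controls. The mean of both Kcnd3 probe sets gave 0.32 and passed. Kcnd1 gave 0.17 (SE 0.07, adjusted p = 0.0640). Smaller increases were those of Kcnj16 (0.44, SE 0.08, adjusted p = 0.000352), Kcnmb4 (0.37, SE 0.08, adjusted p = 0.00129), Kcna4 (0.28, SE 0.06, adjusted p = 0.00149) and Kcnh2 (0.28, SE 0.07, adjusted p = 0.00588), and the value of Kcnj16 was 0.24 on the mean of its probe sets. Kcnip1, which assembles with Kv4 channels, gave 0.17 (SE 0.06, adjusted p = 0.0330) and was lost without control 1 or control 2 at 30 min or control 5 or control 6 at 2 h (adjusted p = 0.140 at most) and on the mean of its probe sets (0.10, adjusted p = 0.187).

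The potassium channel genes that were lower in the 2 h controls differed by less than 0.4. The inward rectifier Kcnj4 gave -0.37 (SE 0.11, adjusted p = 0.0130), Kcna2 -0.30 (SE 0.08, adjusted p = 0.00579), Kcnj15 -0.30 (SE 0.08, adjusted p = 0.0112), the 2-pore channels Kcnk5 and Kcnk1 -0.28 and -0.21 (adjusted p = 0.0160 and 0.0394), Kcnma1 -0.28 (SE 0.10, adjusted p = 0.0461) and Hcn4 -0.26 (SE 0.09, adjusted p = 0.0310). The silent Kv subunits Kcng2 and Kcnv2, which form no channel alone, gave -0.19 and -0.18 (adjusted p = 0.0442 and 0.0492). The count of 14 lower genes was 9 without control 1 at 30 min, 4 without control 2, 8 without control 3, 2 without control 4 at 2 h, 9 without control 5 and 20 without control 6. The split of 23 higher and 14 lower became 23 and 9 after quantile normalization and 24 and 8 after loess correction. Of these 14 lower genes, Kcna2 and Scn4b passed whichever control was left out, and Kcnma1 was lost with each. Kcnj4 was lost without control 2 or control 4 (adjusted p = 0.0742 at most), Kcnj15 without control 4 (0.0586), Kcnk5 without control 2, 4 or 5 (0.0841 at most), Kcnk1 without control 2, 3, 4 or 5 (0.149 at most) and Hcn4 without control 2, 3, 4 or 6 (0.147 at most). Kcng2 was lost without control 1, 2, 4 or 5 and Kcnv2 without any control but control 6 (0.214 at most for each). With all probe sets of each gene averaged, Kcng2 (-0.10, adjusted p = 0.213) and Kcnma1 (-0.15, adjusted p = 0.109) did not pass.

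Markers of neurons were also higher in the 2 h controls. All 9 pan-neuronal genes measured of 10 were higher in the 2 h controls, with a median difference of 1.09, and their mean log2 level was 10.23 to 10.46 in the 30 min controls and 11.35 to 11.37 in those of 2 h. The mean level of the 3 GABAergic markers measured of 4 went from between 7.51 and 8.10 to between 8.99 and 9.17. That of the 7 dopaminergic markers went from between 7.41 and 7.5 to between 8.23 and 8.41. Single dopaminergic markers differed by 0.07 (Slc18a2) to 2.29 (Aldh1a1), and 5 of the 7 passed as higher. Oligodendrocyte lineage markers went from between 8.26 and 8.32 down to between 7.61 and 7.73. Of the 6 measured 5 passed as lower, and Olig1 differed by -2.45 where the median of the 6 was -0.25. Progenitor markers went from between 10.57 and 10.68 down to between 10.15 and 10.29, and 5 of 7 passed as lower. Astrocyte markers were at 9.87 to 9.95 and at 9.80 to 9.87, with 3 of 7 lower and 1 higher. The part of these cell types in the channel differences was not tested.

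**Figure D4:**
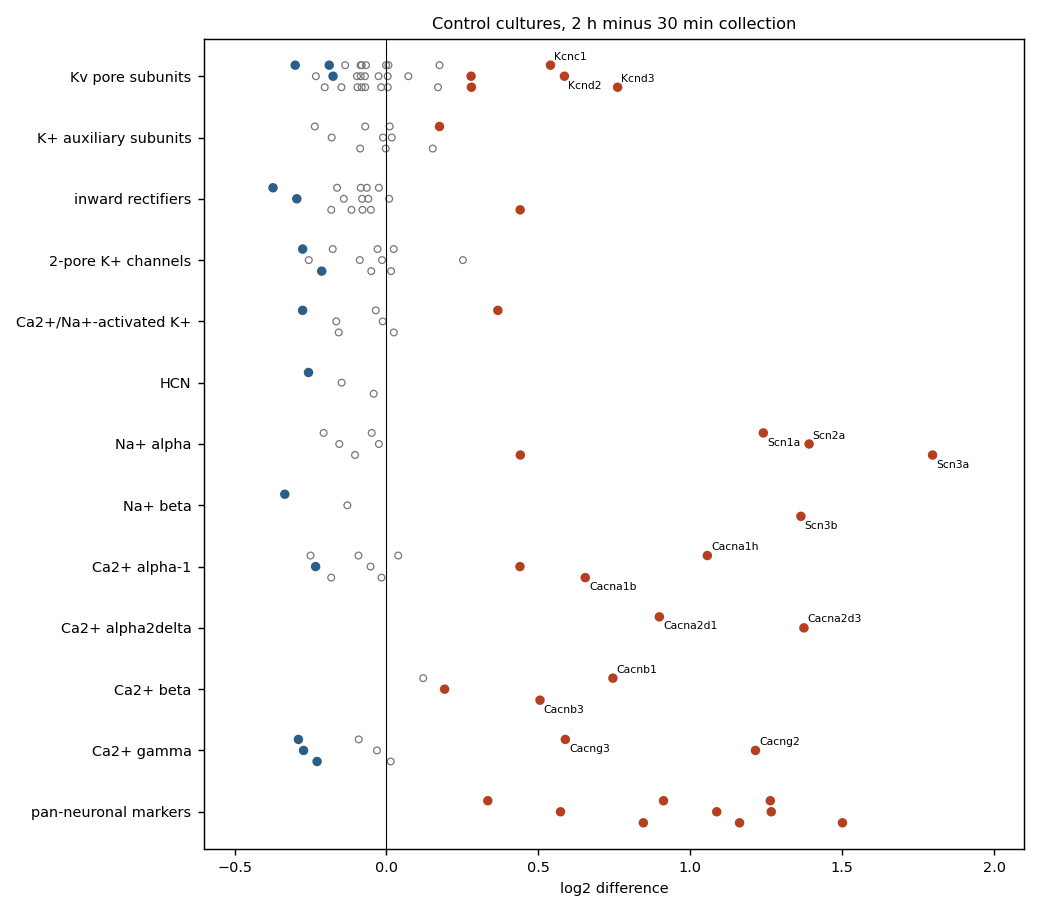
Difference between the control cultures of 2 h and of 30 min (log2, x axis) for the 112 channel genes by class and, in the bottom row, for the 9 pan-neuronal marker genes. Each point is one gene, filled red where higher and blue where lower in the 2 h controls at an adjusted p under 0.05, open otherwise, with the channel genes past 0.5 named. The named sodium and calcium channel genes reach the range of the neuronal markers, and the largest is Scn3a (1.80).

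The 2 h treatment comparison and the comparison of controls share the 2 h control arrays, so their values are set side by side without a count. Mean levels in the 30 min controls, 2 h controls and 2 h depolarized cultures were 5.88, 7.27 and 6.28 for Scn2a, and 8.31, 10.11 and 9.64 for Scn3a. They were 9.45, 10.21 and 9.81 for Kcnd3, and 7.93, 9.15 and 8.71 for Cacng2. In each of these 4 genes all 2 h depolarized arrays lay above all 30 min controls and below all 2 h controls, and the same held for Cacna1b (8.48, 9.14 and 8.83) and Cacna1c (6.80, 7.24 and 6.97). In Kcnk2 (7.78, 8.03 and 7.56) the depolarized arrays lay below both sets of controls. At 2 h, 2 of the 9 neuronal markers passed as higher after depolarization, Nefl (0.43) and Nefm (0.39), and none passed as lower (median -0.09). By sign 4 were above 0 and 5 below. Tubb3, Stmn2 and Rbfox3 gave -0.19, -0.20 and -0.29 with no call (adjusted p = 0.188, 0.126 and 0.0585). In these 3 all depolarized arrays lay below all 2 h controls. The mean log2 level over the 9 markers was 11.32 to 11.40, which covers the range of the 2 h controls.

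The depolarized cultures of the 2 times also differed. Of the 112 channel genes 26 were higher at 2 h and 12 lower, beside 19.2% and 21.8% of all probe sets. The largest were Cacna1h (1.22, SE 0.10, adjusted p = 1.46e-07), Scn3a (1.18, SE 0.08, adjusted p = 4.04e-08), Scn3b (1.12, SE 0.10, adjusted p = 4.44e-07) and Cacna2d3 (1.09, SE 0.09, adjusted p = 1.40e-07), and the potassium channels that were higher included Kcns3 (0.71, SE 0.10, adjusted p = 2.97e-05) and Kcnh2 (0.52, SE 0.07, adjusted p = 2.53e-05). Cacnb1 was higher by 1.03 (SE 0.11, adjusted p = 1.81e-06), Scn1a by 0.93 (SE 0.08, adjusted p = 3.15e-07), Cacng2 by 0.72 (SE 0.12, adjusted p = 0.000125), Cacng3 by 0.60 (SE 0.08, adjusted p = 2.45e-05) and Scn2a by 0.45 (SE 0.07, adjusted p = 0.000111). Smaller increases were those of Kcnj16 (0.39, adjusted p = 0.000743), Kcna4 (0.36, adjusted p = 0.000154), Kcnj11 (0.33, adjusted p = 0.00919), Kcnmb4 (0.31, adjusted p = 0.00360) and Kcnk3 (0.28, adjusted p = 0.00386). The lower genes included Cacna1f (-0.43, SE 0.08, adjusted p = 0.000664), Kcne1 (-0.39, SE 0.06, adjusted p = 0.000142) and Kcnj14 (-0.36, SE 0.10, adjusted p = 0.00803). With all probe sets of each gene averaged, Cacng2 (0.25, adjusted p = 0.0567), Kcnj11 (0.06, adjusted p = 0.499) and Kcnk3 (0.09, adjusted p = 0.279) did not pass. The genes given with values above were among the 26 of 38 called genes that passed whichever depolarized array was left out. The other lower genes were Kcna2, Kcnc2, Kcnh3, Kcnh5, Kcnj2, Kcnj15, Kcnk5, Scn4b and Cacng1. Each of these was lost in some of those fits, and Kcnc2 also on the mean of its probe sets (-0.02, adjusted p = 0.737). The lower count was 5 without depolarized 1, 6 without depolarized 2, 6 without depolarized 4 and 4 without depolarized 6.

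Genes whose products bind, anchor or modify the channels were described from a list of 52, of which 40 were measured. At 30 min 7 were higher and 3 lower (17.5% and 7.5%, beside 10.8% and 13.1% of all probe sets). At 2 h 4 were higher and 7 lower (10.0% and 17.5%), close to the 9.51% and 15.7% of all probe sets. Rem2, a small GTPase that inhibits calcium channels and is induced by activity, rose by 0.83 at 30 min (SE 0.10, adjusted p = 1.28e-05) and by 1.28 at 2 h (SE 0.10, adjusted p = 4.62e-07), and its relative Rrad rose by 0.32 (SE 0.09, adjusted p = 0.0168) and 0.52 (SE 0.09, adjusted p = 0.000752). Pias3, a SUMO ligase also described as a Kv channel chaperone, fell by 1.03 at 30 min (SE 0.08, adjusted p = 1.31e-07). The calcineurin subunits Ppp3cb and Ppp3r1 rose at 30 min by 0.52 and 0.41 (adjusted p = 0.000110 and 0.000191). At 2 h the scaffold Cask rose by 0.52 (SE 0.07, adjusted p = 5.36e-05), and Ank3, the ankyrin that holds sodium channels at the axon initial segment, fell by 0.53 (SE 0.10, adjusted p = 0.00124).

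A second list held 63 other channels, exchangers and pumps, of which 49 were measured. At 30 min 0 were higher and 2 lower (4.08%), beside 10.8% and 13.1% of all probe sets. At 2 h 5 were higher and 5 lower (10.2% each), beside 9.51% and 15.7%. Orai1, the pore of store-operated calcium entry, fell by 0.50 at 30 min (SE 0.09, adjusted p = 0.000710) and was higher by 0.52 at 2 h (SE 0.09, adjusted p = 0.000677). The acid-sensing channel Asic2 fell by 0.64 at 2 h (SE 0.08, adjusted p = 2.45e-05), and Slc12a5, the KCC2 transporter that keeps neuronal chloride low, fell by 0.36 (SE 0.09, adjusted p = 0.00717).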

How the data were processed

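Affymetrix arrays of 12 culture samples were used, 1 per sample. Each deposited value is a log2 signal for a probe set, which the authors computed with RMA, as the submitters' processing notes name it; its version and which arrays were normalized together are not given in the sources used here. Of 15923 probe sets 57 array controls were left out. GEO's platform annotation gave 12783 probe sets a single symbol, 312 several and 2771 none; 12748 of the single symbols were found by gene identifier in the RefSeq table (GRCr8) and 0 were updated.

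A model with 1 mean for each of the 4 groups (8 residual degrees of freedom) was fitted to all 15866 probe sets with limma 3.58.1 in R 4.3.3 (lmFit, eBayes), and p-values were Benjamini-Hochberg adjusted within each of 5 comparisons at a threshold of 0.05. The code was tested on simulated data. The number of arrays limits the precision. The channel genes, their classes and the partner and marker lists were chosen with earlier results of these data known. The text names every channel gene that passed in a treatment comparison, and up to 3 per class and direction in the response difference and the controls. For the depolarized cultures of the 2 times only a part of the higher genes is named. Also named are 2 per class by signal and a set of well-known channels where measured. Alternatives covered scaling, filters on dim probe sets, the variance model, array weights, the test, the threshold, the probe set per gene, the replicate block and leaving out each array. Per the labels, the embryos were mixed before they were divided into 3 groups, and no label ties an array to one of them, so p-values measure the spread between the cultures of this material.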

Additional observations from a re-analysis of the deposited data

Results flagged for a closer look

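In 9 channel genes the response to depolarization differed between the collection times by the test of the difference itself (limma, response at 2 h minus response at 30 min, adjusted p under 0.05). Scn2a (-0.94, adjusted p = 2.00e-05), Kcns3 (0.78, adjusted p = 0.00134) and Scn3a (-0.62, adjusted p = 0.00256) passed whichever of the 12 arrays was left out. Cacna2d1 (-0.54, adjusted p = 0.0182) was lost without depolarized 4 (adjusted p = 0.0520), and Kcnd2 (-0.39, adjusted p = 0.0163) without control 2 (0.0513). Kcnd3 (-0.43, adjusted p = 0.0195) was lost without control 5 or depolarized 4 (0.0545 at most), and on the mean of its 2 probe sets it was -0.17 and did not pass (0.195). Kcna5 (0.45, adjusted p = 0.0193) was lost without control 2, control 4, depolarized 3 or depolarized 4 (0.0585 at most), and Kcne1 (-0.32, adjusted p = 0.0264) without control 2, control 5, depolarized 2 or depolarized 6 (0.0707 at most). Kcnd1 (-0.34, adjusted p = 0.0347) was lost without control 1, control 3, control 5, control 6, depolarized 1, depolarized 2, depolarized 5 or depolarized 6 (0.0898 at most), and with a trended and robust prior (0.0529). The control groups of the 2 times also differed for Scn2a, Scn3a, Kcnd2, Kcnd3 and Cacna2d1, and the part of that difference in the response was not tested. The signal of Scn2a was dim at 30 min, so a fall at that time could have gone unseen.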

How the results depend on the processing

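No difference of a called channel gene changed sign under any alternative run. The dimmer probe sets of a gene were not run alone among these alternatives. At 2 h those of Kcnd3 and Cacna1b had the other sign, with no call. Of the calls recomputed 105 of 145 were kept at 30 min, 161 of 216 at 2 h and 165 of 199 for the response difference. For the controls 504 of 631 were kept, and for the depolarized cultures 527 of 647. Counts are given as higher, then lower, with "same" where a count stayed within 1.5 times its value. At 30 min (6 and 2) they were same and 1 with only the arrays compared, after median centring or with a trended and robust prior, 2 and 0 without the dimmest 50% of probe sets, same and 4 with array weights, 2 and 1 with an ordinary equal-variance test or at an adjusted p of 0.01, and 0 and 0 at a difference of at least 0.5. At 2 h (5 and 7) they were 3 and same with only the arrays compared, after quantile normalization, after loess correction or without the dimmest 25%, 10 and same after median centring, 0 and 4 without the dimmest 50%, 0 and 2 with the ordinary test, 2 and same at 0.01, 1 and 1 at a difference of at least 0.5, and same and 4 when all probe sets of a gene were averaged. For the response difference (2 and 7) they were 0 and same without the dimmest 50%, 1 and 2 at 0.01, and 1 and 3 at a difference of at least 0.5. For the controls (23 and 14) they were same and 9 after quantile normalization, same and 8 after loess correction, 11 and 1 without the dimmest 50%, same and 24 with array weights, same and 4 with the ordinary test, same and 3 at 0.01, and 15 and 0 at a difference of at least 0.5. For the depolarized cultures (26 and 12) they were same and 4 after loess correction, same and 7 without the dimmest 25%, 10 and 1 without the dimmest 50%, 17 and 2 with the ordinary test, same and 3 at 0.01, and 11 and 0 at a difference of at least 0.5. The filters test fewer genes, and for the other alternatives the cause was not tested.

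Leaving out 1 array gave 3 to 5 higher and 1 to 3 lower at 30 min, 2 to 8 and 5 to 7 at 2 h, 1 to 3 and 4 to 8 for the response difference, 20 to 23 and 2 to 20 for the controls, and 24 to 26 and 4 to 17 for the depolarized cultures. The response count of 2 higher was 1 without control 2, control 4, depolarized 3 or depolarized 4, and that of 7 lower was 4 without control 5. The replicate block, with same-numbered arrays of a collection time as pairs, gave 6 and 2 at 30 min and 3 and 8 at 2 h, without Kcna3 (adjusted p = 0.0712) and Kcnn1 (0.0503), and 2 and 6 for the response difference, without Kcnd1 (0.0800). Deviations of same-numbered arrays correlated at -0.32, 0.23, 0.05, 0.24, -0.11 and -0.24 for numbers 1 to 6. Deviations from a mean of 3 arrays are tied to each other, so these values cannot show whether same-numbered arrays shared material. The array gives no detection calls, and weak signals, which most channel genes have, limit what could be called.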
